A study of Mus musculus with 10 samples.

Results

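Cholesterol and fatty acid synthesis was followed through 32 listed genes in cultured primary mouse microglia, the resident macrophages of the brain. The genes were taken by symbol from the GENCODE M21 annotation and matched to the count files by Ensembl identifier, and all 32 were found among the 55471 genes counted. They comprise 18 enzymes of the sterol branch, 5 regulators of sterol-responsive transcription, 8 enzymes of the fatty acid branch and the sterol ester-forming enzyme Soat1.

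The 10 libraries were total RNA-seq of wild-type (WT) primary microglia kept in DMEM with fetal bovine serum. Microglia in 5 libraries had received gapmers against the long noncoding RNA 3222401L13Rik and carried the knockdown label, and microglia in 5 libraries had received control gapmers. A gapmer is an antisense oligonucleotide that recruits RNase H to cut the RNA it pairs with. The labels used here give no gapmer dose or treatment time. They also do not say whether replicates stem from different animals or culture dishes, and every p-value therefore refers to the spread among these libraries, which may be technical.

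In mammalian cells the sterol and fatty acid branches both start from cytosolic acetyl-CoA. The transcription factors encoded by Srebf1 and Srebf2 are held in the endoplasmic reticulum with the escort protein Scap while Insig proteins retain it, and they are released when membrane sterol is low. Srebf2 is best known for sterol enzyme genes and Srebf1 for fatty acid enzyme genes. Microglia take up and handle cholesterol from myelin and debris, and Soat1 stores it as esters.

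Library totals were 5593627 to 6636082 reads in the knockdown-labelled libraries and 4321316 to 5639040 reads in the control libraries (exact permutation test, two-sided, p = 0.0159). The targeted RNA did not set the groups apart: 3222401L13Rik had 22, 38, 24, 33 and 29 reads in the knockdown-labelled libraries, against 30, 29, 28, 33 and 34 reads in the control libraries, a log2 fold change of −0.17 (SE 0.23, adjusted p = 0.541, edgeR quasi-likelihood test). The libraries are therefore called by their label throughout, and 48.3% of its reads would be expected from the background density given next. The groups did differ in reads on genes that microglia are not known to use. Reads of 1093 olfactory receptor genes, here the background density, came to 0.259 ± 0.0676 per kb of exon per 1000000 reads in the knockdown-labelled libraries and 0.603 ± 0.148 in the control libraries (SD, n = 5 each, exact permutation test, two-sided, p = 0.00794, the smallest this design allows). The same order held in sequencing lane 7, with means of 0.244 and 0.644 in knockdown-labelled and control libraries (n = 3 each), and in lane 8, with means of 0.281 and 0.541 (n = 2 each). For each gene, the background share is the percentage of its reads that this density would give over its exons. It is set beside the results, and its part in them was not tested. Of the microglial markers, Csf1r averaged 653 counts per 1000000 reads (CPM) over all libraries, while P2ry12 and Tmem119 were low, at 12.8 and 2.78 CPM. Summed over 9 microglial markers the level was 2179 to 2510 CPM in knockdown-labelled and 1770 to 2064 CPM in control libraries, with 7 of the 9 higher and 0 lower by the test below. By that test 22.9% of all tested genes were higher and 31.3% lower, with 75.6% higher among genes under a 5% background share and 62.5% lower among those at 20% or more, so marker counts are to be read against those rates. Of 8 astrocyte markers, 2 passed as higher and 2 as lower, with sums of 161 to 197 CPM and 170 to 189 CPM in the same order of groups. Neuronal markers summed to 19.4 to 30.1 CPM in knockdown-labelled and 37.1 to 57.4 CPM in control libraries, and 4 of their 5 tested members passed as lower, at background shares of 42.4% to 96.0% over the list. Fibroblast and mural cell markers summed to 14.3 to 25.7 CPM and 30.2 to 40.3 CPM, oligodendrocyte lineage markers to 148 to 157 CPM and 136 to 151 CPM, and endothelial markers to 146 to 157 CPM and 146 to 163 CPM, in the same order of groups. Of their tested members, 4 of 4 fibroblast and mural markers were lower, 1 of 7 oligodendrocyte lineage markers was higher and 2 lower, and 1 of 4 endothelial markers (Flt1, which at 122 CPM makes up most of that sum) was higher and 3 lower. No marker of any list was at 0 in every library, and the part of other cell types in the results was not tested.

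Promoters of 26 of the 32 genes were held in the RefSeq promoter table (GRCm38.p6, 250 bases before to 50 after the annotated start). The 5 printed here belong to genes with an entry there that are among the highest or most changed of their role group. They are Hmgcs1 (chr13:119690101-119690400, plus strand), Msmo1 (chr8:64733529-64733828, minus strand), Srebf2 (chr15:82147019-82147318, plus strand), Acly (chr11:100527951-100528250, minus strand) and Soat1 (chr1:156474279-156474578, minus strand). Each is written 5′ to 3′ on the strand of its gene. Capitals mark CCAAT or its complement ATTGG, the letters bound by the factor NF-Y, and the TCACNCCAC core of a sterol regulatory element, the site bound by the SREBP proteins.
Hmgcs1: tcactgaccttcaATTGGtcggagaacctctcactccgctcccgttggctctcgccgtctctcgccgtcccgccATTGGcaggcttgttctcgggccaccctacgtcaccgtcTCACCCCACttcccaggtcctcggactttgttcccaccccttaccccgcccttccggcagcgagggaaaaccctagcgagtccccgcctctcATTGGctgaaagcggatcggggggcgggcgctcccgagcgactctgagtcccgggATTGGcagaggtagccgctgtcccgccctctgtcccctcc
Msmo1: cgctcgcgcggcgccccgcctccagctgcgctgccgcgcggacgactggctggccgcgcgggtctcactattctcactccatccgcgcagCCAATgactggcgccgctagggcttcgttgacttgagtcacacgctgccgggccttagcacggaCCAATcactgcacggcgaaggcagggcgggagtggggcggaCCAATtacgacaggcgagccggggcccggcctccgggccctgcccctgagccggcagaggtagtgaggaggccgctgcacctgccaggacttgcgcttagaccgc
Srebf2: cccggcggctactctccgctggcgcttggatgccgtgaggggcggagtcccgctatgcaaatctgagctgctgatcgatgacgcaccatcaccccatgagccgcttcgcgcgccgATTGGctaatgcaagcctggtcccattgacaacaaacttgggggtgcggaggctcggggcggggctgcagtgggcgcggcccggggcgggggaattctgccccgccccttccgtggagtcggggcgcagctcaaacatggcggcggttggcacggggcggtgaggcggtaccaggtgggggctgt
Acly: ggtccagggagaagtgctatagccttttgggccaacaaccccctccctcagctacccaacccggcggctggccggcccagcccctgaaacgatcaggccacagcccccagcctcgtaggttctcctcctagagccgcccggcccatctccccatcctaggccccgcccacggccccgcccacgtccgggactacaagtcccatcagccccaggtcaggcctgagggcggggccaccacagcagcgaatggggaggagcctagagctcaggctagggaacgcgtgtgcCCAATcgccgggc
Soat1: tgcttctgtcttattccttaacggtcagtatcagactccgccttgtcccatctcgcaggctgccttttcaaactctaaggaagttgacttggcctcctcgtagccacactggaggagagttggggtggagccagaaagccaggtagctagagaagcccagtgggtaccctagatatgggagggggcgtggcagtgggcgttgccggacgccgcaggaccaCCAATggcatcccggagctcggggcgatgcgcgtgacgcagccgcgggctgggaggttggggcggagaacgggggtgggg

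The letters TCACNCCAC, read on both strands, were found in a promoter of 1 of the 26 listed genes, Hmgcs1, where the match starts 137 bases before the start site. Of all 27025 genes in the table, 1.44% had a promoter with the letters. CCAAT, on either strand, was in a promoter of 21 of the 26, against 41.1% of all genes. The GC box GGGCGG, a site of Sp1, was in 22 of the 26, against 38.2% of all genes. In the 5 promoters printed, matches of different motifs share no base. A match is a run of letters, not evidence of binding, and a promoter without a match may hold a variant of the site. The Srebf2 promoter printed holds a run that differs from TCACNCCAC in its last letter alone, which was neither counted nor marked. Sqle, Fdps, Fdft1, Scd1, Scd2 and Fads1 had no promoter entry and were not searched.

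Levels are given as reads per kb of exon per 1000000 reads (RPKM), scaled between libraries by trimmed mean of M-values (TMM), which allows genes of different length to be compared. As means over all libraries they ran from 0.346 RPKM for Idi1 to 60.3 RPKM for Soat1. In the sterol branch the top was Msmo1, which oxidises a methyl group of sterol intermediates, at 21.5 ± 0.907 RPKM in knockdown-labelled and 17.4 ± 1.22 RPKM in control libraries. Hmgcs1, which makes HMG-CoA, was next, at 18.6 ± 1.46 RPKM and 14.7 ± 1.49 RPKM in the same order. These 2 genes carried 30.6 ± 0.401% of the summed RPKM of the 18 sterol enzymes in knockdown-labelled libraries and 28.0 ± 1.30% in control libraries (SD, n = 5 each).

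The lowest sterol enzyme was Idi1, which isomerises isopentenyl diphosphate. It had 8, 11, 10, 8 and 2 reads in the knockdown-labelled libraries, against 6, 0, 5, 8 and 10 reads in the control libraries. Its expected background exceeded its reads, with a background share of 119%, and it was too low to be tested. Fdps, the farnesyl diphosphate synthase, and Tm7sf2, a sterol reductase, stood above it at 1.11 ± 0.357 and 1.51 ± 0.176 RPKM in knockdown-labelled libraries and 1.29 ± 0.256 and 1.84 ± 0.249 RPKM in control libraries. Among the mevalonate enzymes Pmvk, the phosphomevalonate kinase, was at 12.6 ± 0.766 RPKM in knockdown-labelled and 10.2 ± 1.22 RPKM in control libraries.

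In the fatty acid branch Scd2, a stearoyl-CoA desaturase that introduces a double bond into saturated acyl chains, was the top gene at 53.5 ± 4.50 RPKM in knockdown-labelled and 45.5 ± 4.46 RPKM in control libraries. ATP citrate lyase, Acly, which makes the cytosolic acetyl-CoA of both branches, followed at 31.4 ± 2.07 RPKM and 27.4 ± 2.03 RPKM. Together they made up 72.2 ± 0.629% and 69.7 ± 1.58% of the summed RPKM of the 8 fatty acid enzymes in knockdown-labelled and control libraries (SD, n = 5 each). The desaturases Fads1 and Fads2 of polyunsaturated fatty acids were unequal, at 13.5 ± 1.39 and 3.53 ± 0.381 RPKM in knockdown-labelled libraries and 12.2 ± 0.851 and 3.98 ± 0.531 RPKM in control libraries. Elovl6, which elongates saturated chains, was lowest at 0.786 ± 0.0715 RPKM and 0.983 ± 0.142 RPKM in the same order, and 47.3% of its reads would be expected from the background density.

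The highest gene of all 32 was Soat1, at 66.7 ± 2.94 RPKM in knockdown-labelled and 53.9 ± 3.65 RPKM in control libraries, above 97.2% of tested genes. Its reads alone were 29.3 ± 0.521% of all reads on the 32 genes in knockdown-labelled libraries and 27.6 ± 1.33% in control libraries. Sterol enzymes took 25.0 ± 0.547% and 25.4 ± 0.838%, fatty acid enzymes 31.1 ± 0.773% and 32.4 ± 1.11%, and the 5 regulators 14.7 ± 0.499% and 14.6 ± 0.452%, in the same order of groups (SD, n = 5 each). The branches kept nearly the same balance: summed RPKM of sterol over fatty acid enzymes was 1.12 ± 0.0478 in knockdown-labelled libraries (1.07 to 1.19) and 1.10 ± 0.0659 in control libraries (1.02 to 1.19), and the ranges overlap. Without length or scaling, reads on the 32 genes were 2055 ± 46.2 per 1000000 in knockdown-labelled libraries and 2010 ± 40.1 per 1000000 in control libraries.

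**Figure D1:**
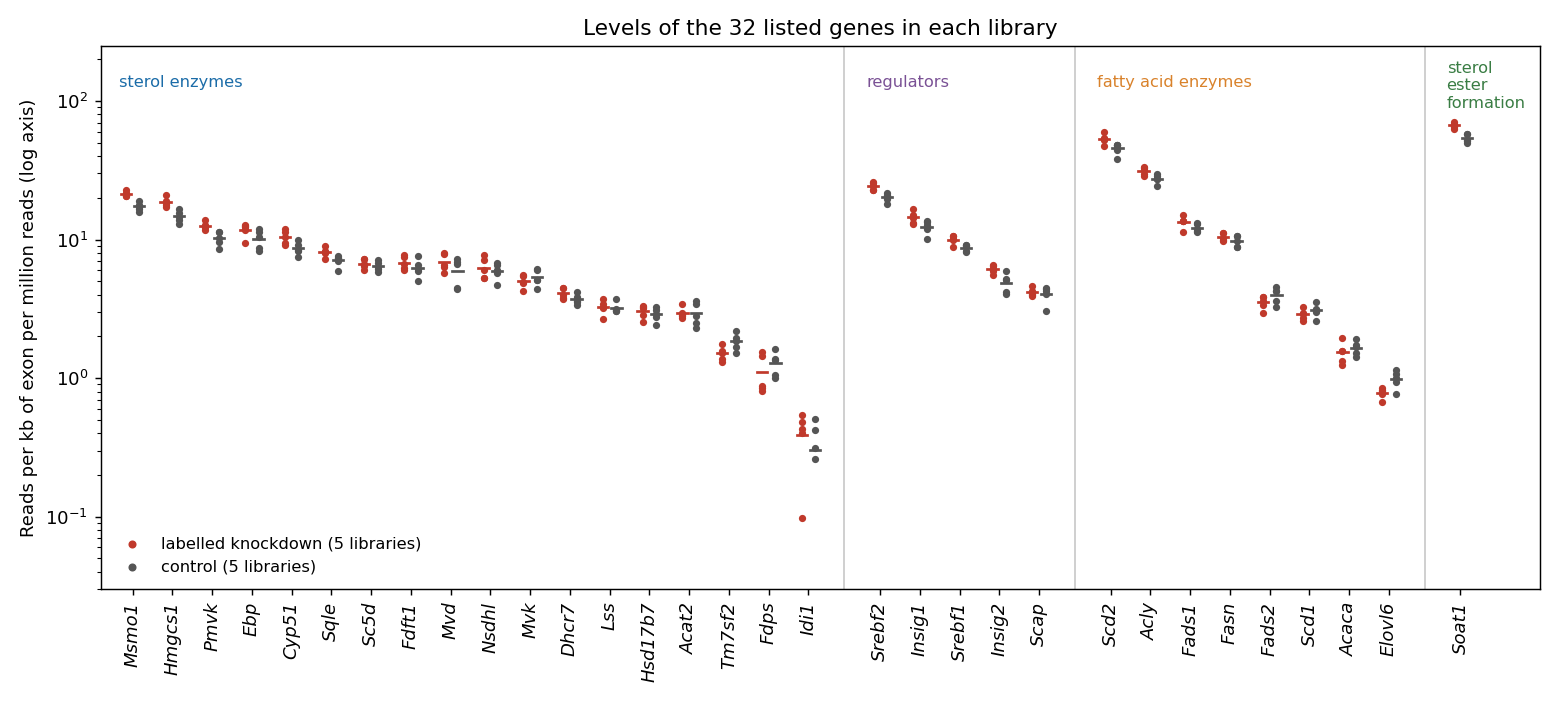
Level of each of the 32 genes in each library, in reads per kb of exon per 1000000 reads on a log axis, by role group, with knockdown-labelled libraries left of control libraries. Points are libraries and short lines are means of 5 libraries. 1 control library with 0 Idi1 reads has no point. Soat1 and Scd2 stand highest and Idi1 lowest.

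The comparison of knockdown-labelled with control libraries asked whether these genes responded to the gapmer. By edgeR's quasi-likelihood test with TMM scaling, with p-values adjusted by Benjamini-Hochberg over all 19263 tested genes, 12 of the 31 tested members rose, 0 fell and 19 did not pass at 0.05. Of all tested genes, 22.9% were called higher and 31.3% lower. No member was lower at an unadjusted p under 0.05 either, and DESeq2 and limma-voom each called 0 lower. Fold changes were small: the median of the 31 was 0.14 on the log2 scale, against −0.10 over all tested genes, and the largest was 0.34. With bulk RNA, fewer cells of a type and less RNA per cell cannot be told apart. The size of the median depended on the scaling: DESeq2 size factors gave 0.21, upper-quartile scaling −0.01 and library totals alone −0.07, with medians over all genes of −0.03, −0.24 and −0.30. These scalings move all genes nearly alike, so the members' median lay 0.23 above that of all genes under each of them and under TMM. That gap was 0.0065 among genes held to 5 CPM in 5 libraries, 0.046 with background density as a covariate and 0.79 with no filter. The calls moved with the scaling: upper-quartile scaling called 4 members higher and 1 lower (8.75% and 37.4% of all genes), and library totals 1 higher and 3 lower (3.94% and 40.9% of all genes). DESeq2 called 13 higher (25.9% of all genes, 26.2% lower) and limma-voom 12 (22.2% of all genes, 31.3% lower). With genes held to 5 CPM in 5 libraries, 4 members passed as higher and 0 as lower (17.1% and 18.7% of all genes), with 2 lower at an unadjusted p under 0.05.

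Of the 17 tested sterol enzymes 5 rose (29.4%), beside 22.9% of all tested genes, and the other 12 did not pass. Hmgcs1 (ENSMUSG00000093930, GRCm38 chromosome 13, 119690379 to 119708260, plus strand) had 81.3, 83.7, 95.9, 78.4 and 87.0 CPM in the knockdown-labelled libraries, against 63.2, 59.2, 66.8, 71.5 and 76.6 CPM in the control libraries, with CPM on the TMM scale here and below. Every knockdown-labelled library lay above every control library, and the log2 fold change was 0.34 (SE 0.07, adjusted p = 7.86e-05, edgeR). Msmo1 (ENSMUSG00000031604, GRCm38 chromosome 8, 64718139 to 64733792, minus strand) had 134, 127, 141, 128 and 131 CPM, against 106, 97.0, 110.0, 103 and 117 CPM in the control libraries. These groups did not overlap either, with a log2 fold change of 0.31 (SE 0.06, adjusted p = 5.89e-05, edgeR).

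Pmvk rose by 0.29 on the log2 scale (SE 0.11, adjusted p = 0.0202, edgeR), again without overlap, at 21.6 ± 1.31 CPM in knockdown-labelled and 17.6 ± 2.09 CPM in control libraries. The lanosterol demethylase Cyp51 rose by 0.28 (SE 0.08, adjusted p = 0.00454) and squalene epoxidase, Sqle, by 0.20 (SE 0.08, adjusted p = 0.0337), on the log2 scale by the same edgeR test, with overlapping groups. Pmvk did not pass without control replicate 2 (0.25, adjusted p = 0.0653), nor did Sqle without control replicate 1 (0.15, adjusted p = 0.116) or knockdown-labelled replicate 3 (0.18, adjusted p = 0.0872, edgeR). In all, groups without overlap were seen in 5 members, each with the knockdown-labelled libraries higher, against 12.6% of all tested genes in that direction and 14.2% in the other. The Sqle value was −0.01 with library totals alone, where none of these 5 enzymes was called.

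The enzymes that did not pass fill the rest of the sterol route. Their log2 fold changes ran from −0.29 for Tm7sf2 to 0.22 for Mvd, the mevalonate diphosphate decarboxylase. The sterol isomerase Ebp, at 0.21 with a 95% interval of 0.00 to 0.41, came nearest to passing (adjusted p = 0.0769, edgeR). It had 28.7, 27.2, 28.4, 21.8 and 29.5 CPM in knockdown-labelled libraries, against 24.0, 26.4, 20.2, 19.2 and 27.7 CPM in control libraries, and 1 knockdown-labelled library, replicate 4, lay well under the other 4. Ebp passed without that library (0.29, adjusted p = 0.0128), without control replicate 2 (0.26, adjusted p = 0.0396) or without control replicate 5 (0.30, adjusted p = 0.0139, edgeR). Lanosterol synthase, Lss, which closes the sterol rings, had 40.1, 28.6, 34.9, 34.5 and 36.8 CPM, against 33.0, 40.5, 33.1, 34.3 and 33.4 CPM in control libraries. Its log2 fold change was 0.01 (95% interval −0.17 to 0.18), and the highest control library lay above all 5 knockdown-labelled ones.

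Intervals for the remaining enzymes all contained 0. They were −0.38 to 0.39 for the thiolase Acat2, −0.37 to 0.17 for mevalonate kinase, Mvk, and −0.70 to 0.28 for Fdps. Squalene synthase, Fdft1, had −0.07 to 0.32 and passed without control replicate 5 (0.23, adjusted p = 0.0467, edgeR). Nsdhl and Hsd17b7, which act in the steps of methyl group removal, had −0.16 to 0.32 and −0.18 to 0.32. Near the end of the route, the desaturase Sc5d had −0.12 to 0.24 and the reductase Dhcr7 −0.06 to 0.34. The widest intervals belonged to genes with few reads, such as Fdps with 19 to 37 reads per library.

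**Figure D2:**
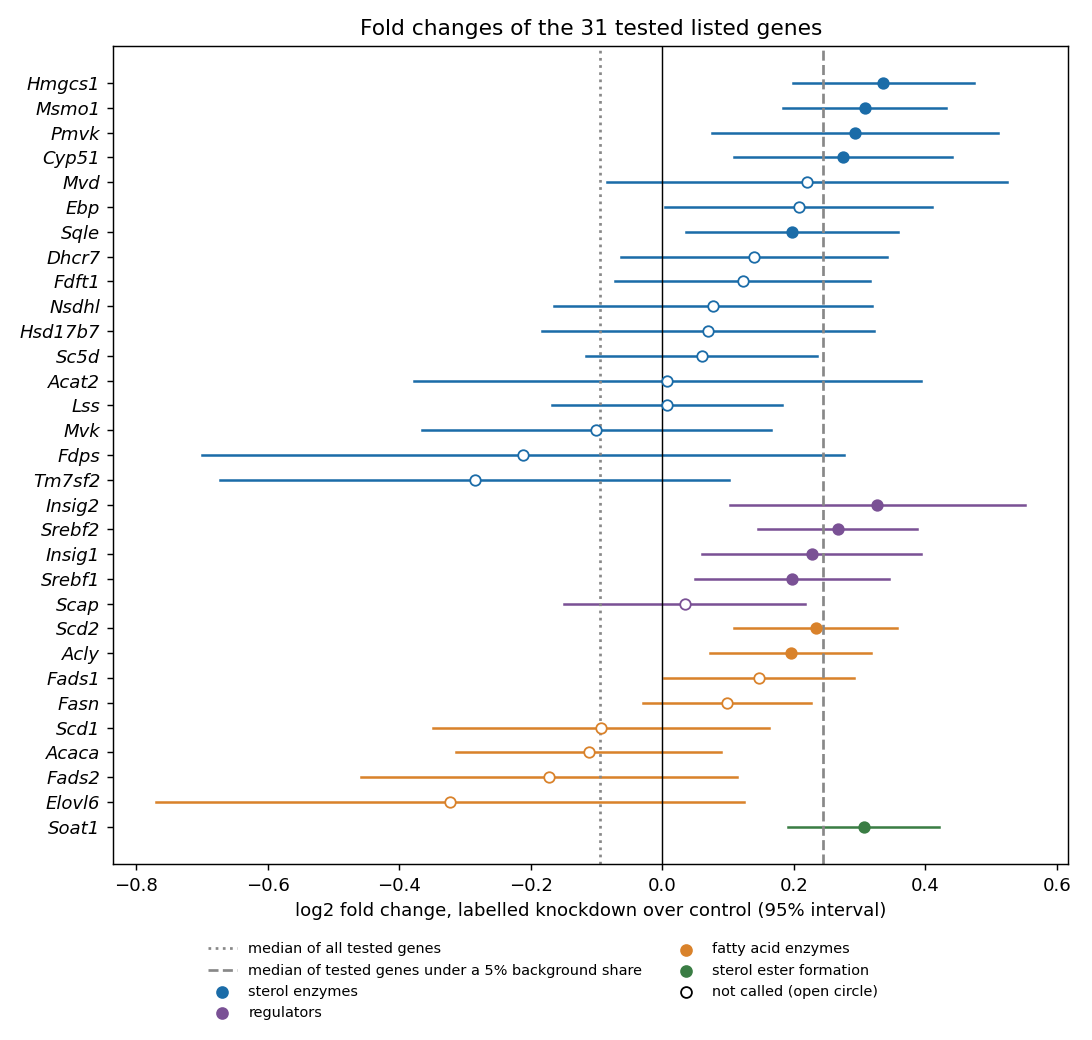
Log2 fold change (labelled knockdown over control) with its 95% interval for the 31 tested genes by role group, under TMM scaling. Filled circles passed at an adjusted p of 0.05, 12 in all. Lines mark the median of all tested genes, −0.10, and of tested genes under a 5% background share, 0.24. With library totals alone, 3 of the filled genes (Sqle, Srebf1, Acly) take a value below 0.

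Among the 5 regulators, 4 rose and Scap did not pass, beside 22.9% of all tested genes called higher. Srebf1, Srebf2 and Insig1 had background shares of 4.43%, 1.86% and 3.09%, a class in which 75.6% of all genes were higher. Insig2 and Scap, at 7.52% and 10.1%, lay in the class of 5 to 20%, where 15.4% were. Srebf2 (ENSMUSG00000022463, GRCm38 chromosome 15, 82147181 to 82205379, plus strand) had 175, 186, 184, 163 and 165 CPM in the knockdown-labelled libraries, against 141, 129, 150.0, 155 and 149 CPM in the control libraries. The groups did not overlap, and the log2 fold change was 0.27 (SE 0.06, adjusted p = 0.000268, edgeR). Srebf1 had 56.7, 56.0, 59.9, 49.5 and 59.6 CPM, against 46.3, 46.1, 51.7, 50.5 and 51.1 CPM in control libraries, a rise of 0.20 (SE 0.07, adjusted p = 0.0207) with 1 knockdown-labelled library inside the control range. Its value was −0.01 with library totals alone.

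Both Insig genes, whose proteins hold Scap in the endoplasmic reticulum, rose. Insig2 had 21.4, 22.2, 23.0, 20.7 and 19.4 CPM in knockdown-labelled libraries, against 14.0, 18.1, 17.9, 14.6 and 20.5 CPM in control libraries, a log2 fold change of 0.33 (SE 0.11, adjusted p = 0.0122, edgeR). Insig1, itself a known SREBP target, had 44.4, 40.3, 51.8, 46.7 and 41.1 CPM, against 42.4, 31.4, 36.6, 41.7 and 39.1 CPM, a log2 fold change of 0.23 (SE 0.08, adjusted p = 0.0183, edgeR). Both pairs of groups overlap, by the lowest knockdown-labelled and highest control libraries. Insig1 did not pass without control replicate 2 (0.18, adjusted p = 0.0751) or knockdown-labelled replicate 3 (0.19, adjusted p = 0.0744, edgeR). Scap had 34.2, 31.5, 29.5, 30.3 and 29.0 CPM in knockdown-labelled libraries, against 31.7, 22.6, 33.1, 30.2 and 32.5 CPM in control libraries, and its log2 fold change was 0.03 (95% interval −0.15 to 0.22, adjusted p = 0.772, edgeR). With library totals alone the 2 Insig genes had 0.02 and 0.12 for Insig1 and Insig2, and neither was called.

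Of the 8 fatty acid enzymes the highest 2 rose (25%), beside 22.9% of all tested genes. Both had a background share under 5%, the class in which 75.6% of all genes were higher. Scd2 (ENSMUSG00000025203, GRCm38 chromosome 19, 44293674 to 44306864, plus strand) had 258, 297, 327, 292 and 286 CPM in knockdown-labelled libraries, against 241, 209, 265, 262 and 265 CPM in control libraries. Its log2 fold change was 0.23 (SE 0.06, adjusted p = 0.0016, edgeR), and 1 knockdown-labelled library lay within the control range. Acly had 152, 174, 178, 157 and 169 CPM, against 151, 128, 144, 145 and 156 CPM in control libraries, a log2 fold change of 0.20 (SE 0.06, adjusted p = 0.00626, edgeR), again with 1 knockdown-labelled library inside the control range. With library totals alone the values were 0.03 for Scd2 and −0.01 for Acly.

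The chain-building enzymes themselves did not pass. Fatty acid synthase, Fasn, averaged 114 ± 7.15 CPM in knockdown-labelled and 107 ± 9.91 CPM in control libraries, a log2 fold change of 0.10 (95% interval −0.03 to 0.23). Acetyl-CoA carboxylase, Acaca, which makes the malonyl-CoA that Fasn uses, had a log2 fold change of −0.11 (−0.31 to 0.09) under TMM and passed as lower, at −0.26 and −0.32, under upper-quartile scaling and library totals. Elovl6 had 5.29, 4.31, 5.23, 5.48 and 4.94 CPM in knockdown-labelled libraries, against 4.92, 6.86, 6.07, 6.45 and 7.32 CPM in control libraries, and 4 of the 5 control libraries lay above every knockdown-labelled one. Its interval was −0.77 to 0.12.

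Fads1 had a log2 fold change of 0.15 (0.00 to 0.29, adjusted p = 0.0793, edgeR) and Fads2 one of −0.17 (−0.46 to 0.11). Fads1 passed without control replicate 3 (0.19, adjusted p = 0.0433) or 5 (0.20, adjusted p = 0.0267), or without knockdown-labelled replicate 1 (0.23, adjusted p = 0.0106, edgeR). Scd1, a close relative of Scd2, had 14.2, 15.9, 13.3, 12.7 and 14.5 CPM in knockdown-labelled libraries, against 15.5, 15.2, 12.7, 17.3 and 14.6 CPM in control libraries. Its log2 fold change was −0.09 (−0.35 to 0.16), with overlapping groups.

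Soat1 (ENSMUSG00000026600, GRCm38 chromosome 1, 156424525 to 156474331, minus strand) had 632, 670.2, 686, 616 and 661 CPM in the knockdown-labelled libraries, against 569, 488, 513, 508 and 563 CPM in the control libraries. Every knockdown-labelled library lay above every control library. The log2 fold change was 0.31 (SE 0.06, adjusted p = 2.49e-05, edgeR), and Soat1 was the single listed gene called higher with library totals alone, at 0.10.

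The members that rose were mostly those with a small background share. Of the 13 members under 5%, 10 rose (76.9%), with a median log2 fold change of 0.23. Of all 4712 tested genes under 5%, 75.6% were called higher and 0.488% lower, with a median of 0.24, so the members' share was close to that of genes with a like background share. Of the 14 members from 5 to 20%, 2 rose, Sqle and Insig2 (14.3%), against 15.4% of all such genes (6.39% were lower), with medians of 0.06 and 0.08. None of the 4 members at 20% or more, Tm7sf2, Fdps, Acaca and Elovl6, was called, where 62.5% of all such genes were lower and 0.122% higher. Their median was −0.25, against −0.81 over all such genes. The 5 members without overlap were all among the 13 under 5%, a class in which 44.6% of all genes were higher without overlap.

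**Figure D3:**
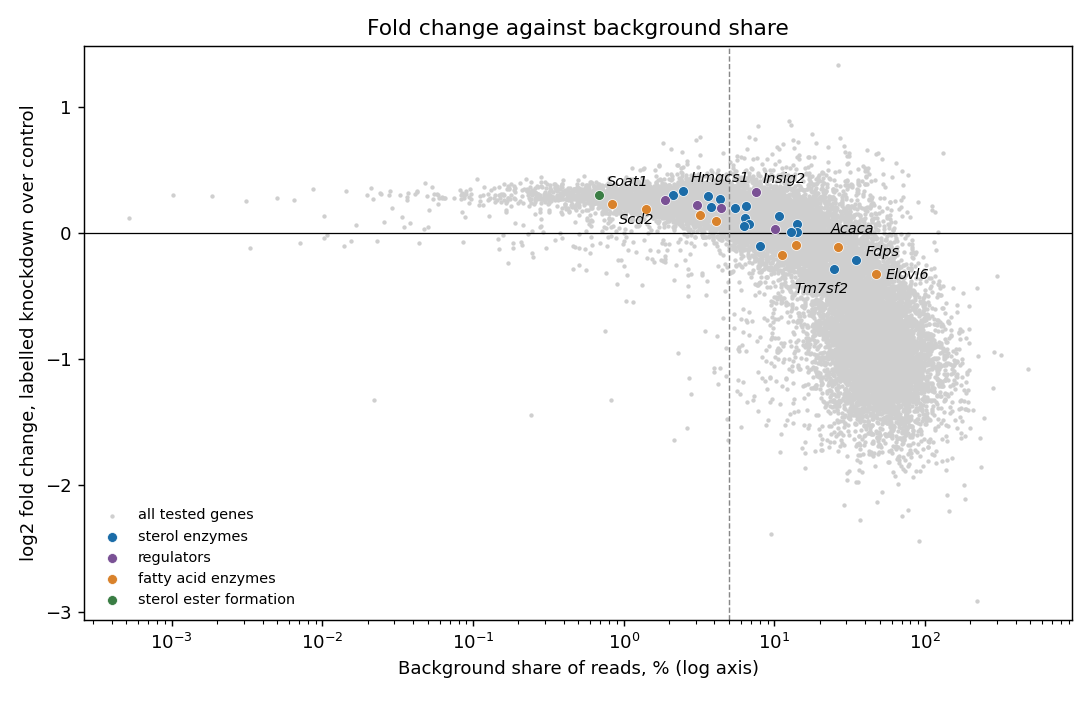
Log2 fold change (labelled knockdown over control, TMM scaling) against background share (log axis) for all 19263 tested genes in grey and the 31 tested members in colour by role group. The dashed line marks 5%. Members lie within the cloud of other genes, from Soat1 at 0.687% to Elovl6 at 47.3%.

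When the genes under 5% were scaled on one another, 0 of the 13 members were called by edgeR, with Soat1 higher and Fasn lower at an unadjusted p under 0.05. The values were 0.09 for Hmgcs1, 0.06 for Msmo1, 0.05 for Pmvk, 0.03 for Cyp51, 0.02 for Srebf2 and 0.06 for Soat1. They were below 0 for Srebf1 (−0.05), Insig1 (−0.02), Acly (−0.05), Scd2 (−0.01), Ebp (−0.04), Fads1 (−0.10) and Fasn (−0.15). On this scale, 4 of the 5 sterol enzymes of the class had positive values, and all 4 of its fatty acid enzymes had negative ones, none of them past the threshold. The scaling centres the class, with a median of −0.00048 over all its genes, so either sign is common in it. A difference between the branches was not tested. Of all genes in the class, 2.27% were called higher and 1.85% lower on this scale. With the background also subtracted, 0 of the 13 were called (0.722% of the class higher, 1.02% lower), Fasn alone lying below an unadjusted p of 0.05. With background density as a covariate for all genes, 0 members were called and 0 had an unadjusted p under 0.05 (0.0208% of all genes higher, 0.0831% lower). The density ran from 0.190 to 0.345 in knockdown-labelled and from 0.426 to 0.821 in control libraries. As these ranges do not overlap, density and label can hardly be told apart in this fit, and few genes of any kind could pass.

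**Figure D4:**
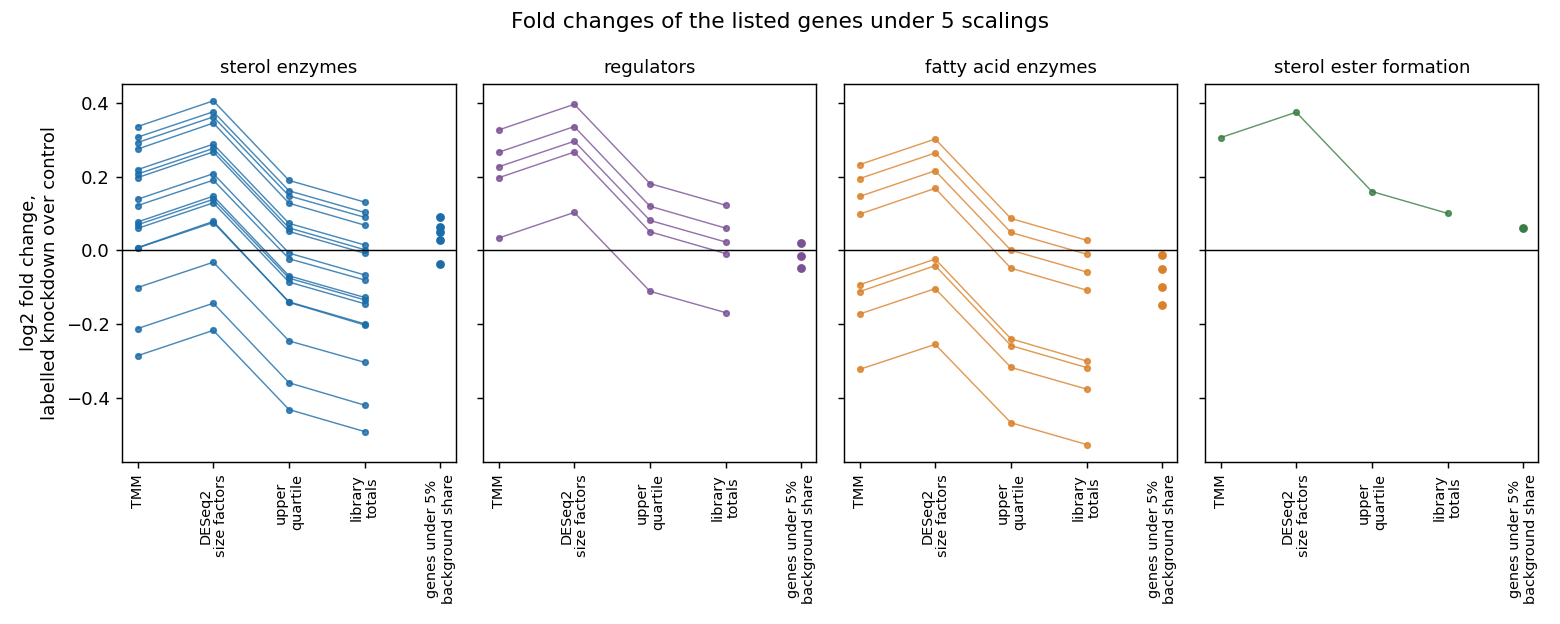
Log2 fold change (labelled knockdown over control) of the tested members by role group under 4 scalings of all genes and, at the right, for the 13 members under a 5% background share scaled on that class. Each line is 1 gene. All genes shift down together from DESeq2 size factors to library totals, where the median of the 31 tested members is −0.07. Of the 12 members called higher under TMM, Sqle, Srebf1 and Acly end below 0 there.

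In lane 7 (3 libraries a group) the 12 risen genes had log2 fold changes of 0.27 to 0.48, and 11 passed by edgeR, all but Pmvk (20.7% of all genes higher, 28.9% lower). In lane 8 (2 libraries a group) they had 0.09 to 0.29, and 0 passed after adjustment, with Msmo1 and Soat1 at an unadjusted p under 0.05 (0.328% of all genes higher, 0.749% lower). The 12 were chosen over the same libraries, so their sign within a lane is no separate check, and the difference between lanes was not tested.

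Ratios of related genes within a library do not depend on the scaling between libraries, and 3 were tested by exact two-sided permutation with Benjamini-Hochberg adjustment over the 3. Scd1 over Scd2 per kb was 0.0543 ± 0.00690 in knockdown-labelled and 0.0684 ± 0.0108 in control libraries (SD, n = 5 each). The log2 difference was −0.33 (exact permutation p = 0.0556, adjusted p = 0.167). Insig1 over Insig2 was 2.36 ± 0.204 and 2.60 ± 0.659 in knockdown-labelled and control libraries, and 2 of the 5 control libraries lay above all others. The log2 difference was −0.11 (exact permutation p = 0.508, adjusted p = 0.508). Srebf1 over Srebf2 was 0.412 ± 0.0306 and 0.433 ± 0.0166 in the same order, with a log2 difference of −0.07 (exact permutation p = 0.206, adjusted p = 0.310). No ratio passed, and the groups overlap in all 3. With background reads subtracted, the log2 differences were −0.19 for Scd1 over Scd2 (exact permutation p = 0.198), −0.18 for Insig1 over Insig2 (exact permutation p = 0.357) and −0.04 for Srebf1 over Srebf2 (exact permutation p = 0.508). Without control replicate 1 the Insig difference was −0.00064, and without control replicate 4 it was −0.0209. In lanes 7 and 8 the differences were −0.30 and −0.36 for the Scd pair, −0.11 and −0.10 for the Insig pair and −0.11 and −0.01 for the Srebf pair.

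**Figure D5:**
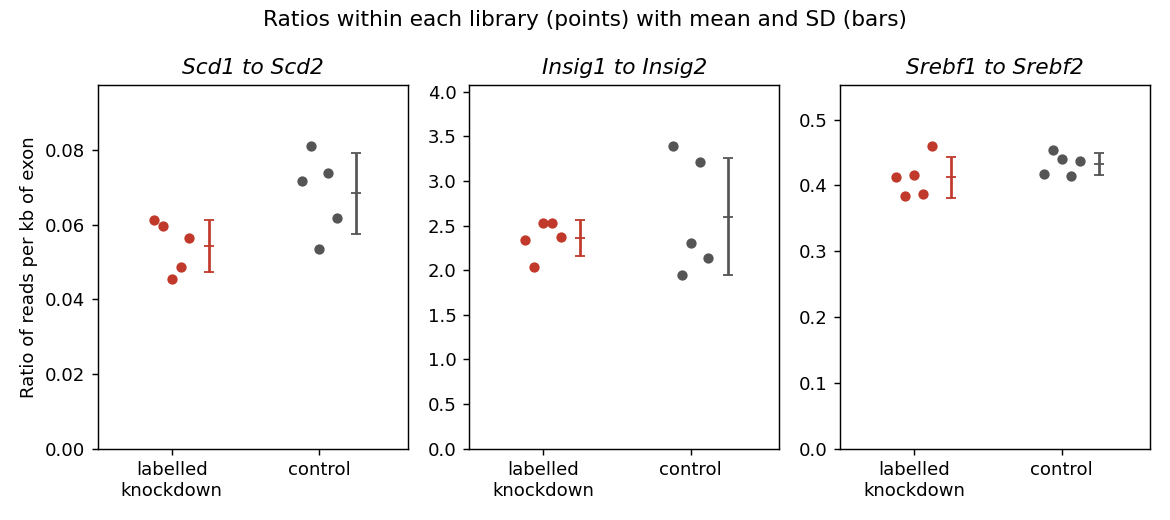
Ratio of reads per kb of exon of 2 related genes in each library, knockdown-labelled left of control, for Scd1 over Scd2, Insig1 over Insig2 and Srebf1 over Srebf2. Points are libraries and bars are mean ± SD of 5 libraries. The groups overlap in each panel.

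Some of these counts could be shared with other gene models. For each gene the percentage is of the transcript with the largest matched share, which can be far shorter than its summed exons. Scd1 and Scd2 hold stretches of at least 95% identity over 83.1% of an Scd1 transcript of 750 bases, where Scd1 has 4.892 kb of exon. The match covered 11.4% of an Scd2 transcript of 5455 bases. Fdps matched pseudogenes over 94.0% of a transcript of 722 bases, Idi1 over 87.5% of 745 bases and Elovl6 over 83.1% of 797 bases. Acat2 matched its relative Acat3 over 91.8% of 827 bases. Exon lengths of Fdps, Idi1, Elovl6 and Acat2 were 4.208, 3.505, 6.431 and 2.544 kb. Their copies had 228, 35, 29 and 27 reads over all libraries, against 277, 68, 313 and 413 for the genes. Fdft1, with 4.227 kb of exon, matched the pseudogene Gm6781, which had 51 reads, over 82.7% of a transcript of 808 bases. Fdft1 also overlaps, on the opposite strand, 774 bases of exon of the cathepsin gene Ctsb, which had 663121 reads against 1535 for Fdft1. Tm7sf2 shares 532 bases of exon with Vps51 on the same strand. Cyp51 and Srebf1 share 166 and 109 bases of exon, on the opposite strand, with Akap9 and Rai1. Those partners had 14754 and 3028 reads, against 2346 and 2927 for the genes. Other genes, some of them called higher, had matches too. Msmo1 matched 62 gene models over 7.11% of a transcript of 2969 bases. Hmgcs1 matched 15 over 9.16% of 1747 bases and Soat1 43 over 1.70% of 8371 bases. Those models had 177303, 59024 and 34936 reads, against 6631, 4250 and 32824 for the genes. Dhcr7 matched 25 models over 33.1% of 682 bases. Acaca matched the pseudogene Gm5182, which had 19 reads, over 100% of 684 bases. The treatment of such reads in counting is not stated, and the values of all these genes are uncertain.

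Genes around the pathway were read in 5 lists of 44 genes, chosen with earlier results of these data known. Of the 44, 31 rose, 3 fell and 10 did not pass, against the 22.9% and 31.3% of all tested genes. Of the 28 with a background share under 5%, 25 rose (89.3%), beside 75.6% of all such genes. Of the other 16, 6 rose (37.5%), beside 15.4% of all genes from 5 to 20% and 0.122% of those at 20% or more. Upper-quartile scaling called 13 of the 44 higher and 4 lower, and library totals 6 higher and 5 lower, where 7 of the 31 (Aacs, Cyb5r3, G6pdx, Mbtps1, Mbtps2, Pgd and Slc25a1) took values below 0. Among 8 partners of the sterol enzymes 4 rose, with log2 fold changes led by the sterol carrier Stard4 at 0.28 (SE 0.09) and Por, the electron donor of Cyp51 and Sqle, at 0.28 (SE 0.06). Among 7 genes listed around SREBP processing and degradation 6 rose, Ubxn8 among them at 0.30 (SE 0.11). Not all of the 7 have an established part in that process, and that of Ubxn8 is not established. All 9 genes of the LXR and sterol sensing list rose, the cholesterol exporter Abca1 by 0.35 (SE 0.06) and the ubiquitin ligase Mylip by 0.34 (SE 0.06). Each of the 9 had a background share under 5%, the class in which 75.6% of all genes were higher. Their median was 0.31, against 0.24 over that class.

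Of 9 genes listed around acetyl-CoA and NADPH supply, not all of them suppliers, 5 rose. They include the cytosolic isocitrate dehydrogenase Idh1 at 0.31 (SE 0.06) and the citrate carrier Slc25a1 at 0.21 (SE 0.08). The 2 that fell were Acss2, which makes acetyl-CoA from acetate, by 0.28 (SE 0.12), and Thrsp, by 0.79 (SE 0.30), on the log2 scale. Of 11 genes of fatty acid elongation and activation, 7 rose, with Hacd3 at 0.35 (SE 0.08) and the acyl-CoA synthetase Acsl4 at 0.31 (SE 0.06), and the elongase Elovl7 fell by 1.62 (SE 0.33). The background shares of the 3 that fell were 24.0% for Acss2, 27.1% for Thrsp and 49.4% for Elovl7, and Thrsp and Elovl7 were named after their values were seen.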

How the data were processed

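Raw exon read counts per gene were deposited by the authors, 1 table per library, with 55471 genes and 92 ERCC spike-in entries, left out because no library held more than 2 of their reads. Libraries were made from total RNA with a strand-marking low-input kit (SMARTer Pico v2, Takara), per the labels' protocols. The submitters' processing notes name bcl2fastq and the builds GRCm38 and mm10. For aligner, counter, strand setting and annotation, the sources used here give no name. Groups were taken from the treatment labels. GENCODE M21 gave symbols, positions and exon lengths (55230 genes matched).

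From the deposited counts, genes were filtered by edgeR 4.0.16 (filterByExpr by group, 19263 kept), scaled by TMM and tested by robust quasi-likelihood with group as the single term, knockdown over control, in R 4.3.3. The procedure was first tested on simulated data with as many genes raised as lowered and no difference in background density between groups. These libraries differ in background density, so that test does not cover calls that go with background share. CPM and reads per kb of exon per 1000000 reads used the TMM scale. With 4321316 to 6636082 reads per library, members had from 0 to 4065 reads per library, and counts this low limit precision for the lowest genes. Pairs of libraries within a group differed by more than sampling noise, with a chi-square over its degrees of freedom of 1.76 to 4.48. Alternatives were upper-quartile and library-total scaling, DESeq2 1.42.0, limma-voom 3.58.1, no filter, a filter of 5 CPM in 5 libraries, lane, replicate number and background density as terms, each lane alone, each library left out, and genes under a 5% background share scaled on themselves, with or without the background subtracted. Near copies were sought with BLAST 2.17.0 (at least 95% identity over 100 bases). The members, lists and tests were chosen with earlier results of these data known. Values in every library are given for the highest and lowest member of each role group, the up to 2 called members with the largest changes, all regulators, the ratio genes and members with a library far from its group. Of the surrounding lists, up to 2 called genes per list and direction with the largest change and a mean of at least 5 CPM are named, except any not reported here. Figures were drawn with matplotlib 3.10.9.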

Additional observations from a re-analysis of the deposited data

Results flagged for a closer look

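In 62 groups of 5 libraries (31 members, both labels), a library was taken as standing apart when its gap to the nearest other library, divided by the range of the group, both on the scale of log2(CPM + 0.5), exceeded Dixon's 95% critical value of 0.71. Chance alone gives about 1 such group in 20, and 3 were found. Lss stood out in control replicate 2, the highest control library at 40.5 CPM, with the other 4 at 33.0 to 34.3 CPM (ratio 0.809). Scap stood out in the same library, there the lowest at 22.6 CPM, with the other 4 at 30.2 to 33.1 CPM (ratio 0.759). Control replicate 2 also had the fewest reads, 4321316, and the highest background density, 0.821 RPKM, and the part of either in these values was not tested. Ebp stood out in knockdown-labelled replicate 4, the lowest of its group at 21.8 CPM, with the other 4 at 27.2 to 29.5 CPM (ratio 0.738, or 0.709 on the CPM scale, which is under the critical value).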

How the results depend on the processing

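Calls of listed genes depended on the scaling. Against 12 higher and 0 lower of 31 with TMM (all genes 4418 higher and 6033 lower), DESeq2 gave 13 and limma-voom 12 higher, and both 0 lower. Upper-quartile scaling gave 4 higher and 1 lower (Acaca), with 1685 higher and 7195 lower over all genes. Library totals gave 1 higher and 3 lower (Acaca, Fads2, Tm7sf2), with 759 higher and 7888 lower over all genes. The filter of 5 CPM gave 4 listed genes higher, with 2057 higher and 2239 lower over all genes. Lane 8 alone gave 0 listed genes higher (2 at an unadjusted p under 0.05), with 67 higher and 153 lower over all genes. With background density as a covariate, a fit in which density and label can hardly be told apart, 0 listed genes were higher (0 unadjusted). Over all genes 4 were higher and 16 lower there. In the class under a 5% background share, 0 of 13 were higher (1 unadjusted) with 107 higher and 87 lower over the class, and 0 (0 unadjusted) with 34 higher and 48 lower after subtraction.

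Of the 12 genes called higher, those that turned negative were, with library totals, Sqle −0.0075, Srebf1 −0.0084 and Acly −0.0102. With the covariate they were Acly −0.0844 and Scd2 −0.0398. In the class scaled on itself and after subtraction, in that order, they were Srebf1 −0.0479 and −0.0215, Insig1 −0.0158 and −0.0063, Acly −0.0495 and −0.063, and Scd2 −0.0117 and −0.0327. Genes that were called neither with TMM nor under the alternative also changed sign, 9 with upper-quartile scaling, 10 with library totals, 7 with the 5 CPM filter, 9 with the covariate and 3 (Ebp, Fads1, Fasn) in the class, before and after subtraction. The cause was not tested.

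Leaving out 1 library at a time gave 10 to 15 listed genes higher and 0 lower, with 4032 to 5015 genes higher and 4928 to 6967 lower over all. The calls lost (Pmvk, Sqle, Insig1) and gained (Fdft1, Ebp, Fads1) stand beside those genes. The Scd1 to Scd2 log2 difference ran from −0.41 to −0.26 and passed before adjustment without control replicate 3 (exact permutation p = 0.0159), and that of Srebf1 to Srebf2 ran from −0.11 to −0.0473 and did so without knockdown-labelled replicate 5 (exact permutation p = 0.0397). That of Insig1 to Insig2 ran from −0.20 to −0.00064. Libraries with the same replicate number also shared a sequencing lane, and the labels do not say whether they share an animal or culture dish. Their deviations correlated by −0.0994, −0.2171, 0.0141, 0.1525 and 0.1629 for numbers 1 to 5, and 1 of the 5 numbers matched itself best. Being few and of mixed sign, these correlations cannot decide whether the libraries were paired. The replicate block gave 12 listed genes higher and 0 lower, with 4405 higher and 5949 lower over all.

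Members with few reads, such as Fdps and Elovl6 with at most 41 in a library, had intervals too wide to show changes of the size seen in the high members.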
